A study of Mus musculus with 4 samples.

Results

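The genes described here form the pluripotency network, a list of 35 genes that mark or maintain mouse embryonic stem cells and the early epiblast. They were chosen by symbol, with earlier results of these data known. Of the 35, 31 were matched through a RefSeq accession to 40 of the 41174 probes of the array. No probe was matched to Nanog, Prdm14, L1td1 or Fgf4, and these 4 are not analysed further as transcripts. All cells were p53-null mouse embryonic fibroblasts (MEFs), meaning that both groups lack the tumour suppressor p53, and all were sampled 5 days after retroviral infection. One group received OSK, the usual short name for the reprogramming factors Oct4 (encoded by Pou5f1), Sox2 and Klf4, and the other with OSK plus the Gli-similar zinc finger factor Glis1. Each group had 2 one-colour Agilent arrays, and no uninfected fibroblasts or embryonic stem cells were among the 4 samples. Nothing in the labels names separate cultures for the arrays of a group, so each p-value reflects only how far these arrays differ, and that spread may be technical. The RNA comes from the whole dish, so fewer cells expressing a gene and less RNA per cell cannot be told apart.

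In pluripotent cells Oct4, Sox2 and Nanog bind together at the regulatory regions of each other and of many further genes, and a second tier of factors such as Esrrb, Nr5a2, Tfcp2l1 and Tbx3 feeds back on the same regions. Around this core lie chromatin-bound Dppa proteins, the RNA-binding Lin28 proteins that hold back let-7 microRNAs, and the Nodal pathway with its co-receptor and its inhibitors. When fibroblasts are reprogrammed, these genes are known to come on in steps, and surface and metabolic markers such as alkaline phosphatase often appear before the core.

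Values below are the log2 of the scanner's processed signal minus the log2 of the array's 75th percentile, called the scaled log2 signal. A value of 0 is the brightness of a spot at that percentile. A signal was taken as on where the scanner flagged it as well above background, and the lowest signals flagged so were -6.21 and -5.56 on OSK replicates 1 and 2, and -6.36 and -6.14 on OSK+Glis1 replicates 1 and 2. Between 59.9% and 65.2% of spots carried that flag and no spot was saturated. Precision is limited by having 2 arrays a group. Of 12 fibroblast markers with a probe, all 12 were on in both groups. Their summed signal, in multiples of the 75th percentile, was 478.1 and 435.9 in OSK and 408.6 and 368.3 in OSK+Glis1, with 6 lower and none higher in OSK+Glis1 in limma at an adjusted p of 0.05. Of 8 extraembryonic endoderm markers 7 were on in no array, among them Gata4 and Sox17. Of 7 endothelium markers 3 rose (Egfl7, Esam and Kdr) and none fell. Pecam1 and Tie1 were on in no array, and Cdh5 was on only in 1 OSK+Glis1 array. Tek did not pass, with a log2 difference of -0.85 (limma adjusted p = 0.1155). Of 8 keratinocyte markers 2 fell (Krt14 and Trp63) and none rose, and Dsg3 and Ivl were on in no array. Some genes of the endothelium and keratinocyte lists thus changed along with the members, and others did not pass the test or were not tested. The summed endothelium signal was 1.85 and 1.48 in OSK and 1.92 and 2.27 in OSK+Glis1, and the keratinocyte sum 3.07 and 2.69 against 1.67 and 0.999. Both OSK+Glis1 arrays thus lay above both OSK arrays in the endothelium sum and below them in the keratinocyte sum. Of 6 leukocyte markers 2 were on in both groups and none passed the test. The part of these cell types in the members' differences was not tested. The labels call the OSK+Glis1 cells induced pluripotent cells derived from fibroblasts. The Glis1 probe read -3.26 and -3.34 in OSK against -3.28 and -3.73 in OSK+Glis1, so it gave no check of the labels. The Sox2 probe, for a factor that both groups received, was above background in no OSK array. Directions refer to the groups as labelled.

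The promoters of the members were searched for motifs of the transduced factors and of Esrrb. RefSeq promoters (build GRCm38.p6) were found for 22 of the 35 genes, with 29 start sites, and the 250 bases before each start were searched on both strands. The motifs were the octamer core bound by Oct4 (ATGCAAA), the composite Sox and Oct site (ATTGTNATG), a Klf site (GGGTGTGG), the Esrrb site (AAGGTCA) and the Gli site (TGGGTGGTC). The octamer core and the composite overlap where both occur. Printed first are the windows of 3 genes that rose with Glis1, Pou5f1 (chr17:35505782-35506031, plus strand), Esrrb (chr12:86360867-86361116, plus strand) and Lin28a (chr4:134018817-134019066, minus strand), each with none of the motifs. The other pair are the windows that do hold one, Zfp42 (chr8:43307010-43307259, minus strand) and Nanog (chr6:122707239-122707488, plus strand). Capitals mark the motifs.
Pou5f1: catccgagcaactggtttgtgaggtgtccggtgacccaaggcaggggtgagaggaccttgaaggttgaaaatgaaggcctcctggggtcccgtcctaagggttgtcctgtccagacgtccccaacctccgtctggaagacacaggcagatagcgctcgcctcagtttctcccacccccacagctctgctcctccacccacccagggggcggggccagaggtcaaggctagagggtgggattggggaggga
Esrrb: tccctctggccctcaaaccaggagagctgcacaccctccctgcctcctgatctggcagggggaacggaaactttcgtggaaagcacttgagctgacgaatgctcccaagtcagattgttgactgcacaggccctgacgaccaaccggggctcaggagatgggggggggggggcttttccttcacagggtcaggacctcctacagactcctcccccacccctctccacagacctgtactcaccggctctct
Lin28a: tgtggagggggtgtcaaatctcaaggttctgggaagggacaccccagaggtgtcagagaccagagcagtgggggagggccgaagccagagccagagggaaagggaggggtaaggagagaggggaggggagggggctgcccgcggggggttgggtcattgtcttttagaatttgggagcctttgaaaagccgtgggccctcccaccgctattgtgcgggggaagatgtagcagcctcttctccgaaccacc
Zfp42: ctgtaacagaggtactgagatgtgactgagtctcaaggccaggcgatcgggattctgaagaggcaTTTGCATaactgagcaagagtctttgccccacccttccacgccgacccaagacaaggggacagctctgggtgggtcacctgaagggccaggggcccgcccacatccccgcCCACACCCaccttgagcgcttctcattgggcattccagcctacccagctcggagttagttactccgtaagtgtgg
Nanog: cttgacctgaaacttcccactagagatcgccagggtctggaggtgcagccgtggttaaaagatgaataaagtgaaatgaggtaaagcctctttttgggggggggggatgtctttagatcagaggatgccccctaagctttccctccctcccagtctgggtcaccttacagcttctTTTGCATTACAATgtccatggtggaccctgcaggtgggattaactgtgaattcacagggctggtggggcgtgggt
The Zfp42 window holds an octamer core that begins 185 bases before the start and a Klf site that begins 75 bases before it, both read on the opposite strand. The Nanog window holds the composite site, read on the opposite strand, with its octamer core beginning 75 bases before the start, and a second Nanog window that overlaps this one holds the same site. Of all 32851 promoters of this length, 4.12% held the octamer core, 0.828% the composite, 3.2% the Klf site, 4.08% the Esrrb site and 0.225% the Gli site. Any of the 5 was found in 3 of the 29 windows, of 2 genes, and in 11.9% of all promoters. A match is a description of these letters, and the absence of one says nothing of binding elsewhere.

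Most members with a probe were on in both groups at day 5, as were most probes of the array. Of the 31 genes with a probe, 22 were on in both OSK arrays and 26 in both OSK+Glis1 arrays, while 58.8% and 61.3% of all probes were on in both arrays of the respective group. A gene counted as on through any of its probes, while the shares are of single probes, so the units differ. Genes on in all 4 arrays numbered 21. Esrrb, Dppa3 and Lin28a were on in both OSK+Glis1 arrays and in no OSK array, a pattern shown by 1.32% of all probes. Pou5f1 and Tdgf1 were on in both OSK+Glis1 arrays and in 1 OSK array, and Zfp42 was on in both OSK arrays and in 1 OSK+Glis1 array.

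Dppa4, Khdc3, Lin28b and Fut9 stayed off in all 4 arrays, as did 30.9% of all probes. Dppa4 is a chromatin-bound partner of Dppa2, Khdc3 (Filia) guards genome stability in early embryos and stem cells, Lin28b is the second Lin28 protein, and Fut9 makes the SSEA-1 carbohydrate. Their 9 probes read between -8.58 and -6.20, and the upper end belongs to Khdc3 on OSK+Glis1 replicate 2 (-6.20, against a lowest flagged signal of -6.14 on that array). All 5 Fut9 probes and both Lin28b probes were off. In the RefSeq order (GRCm38.p6) Dppa4 and Dppa2 are neighbours on chromosome 16, and here Dppa2 was on in all 4 arrays while Dppa4 was on in none.

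**Figure D1:**
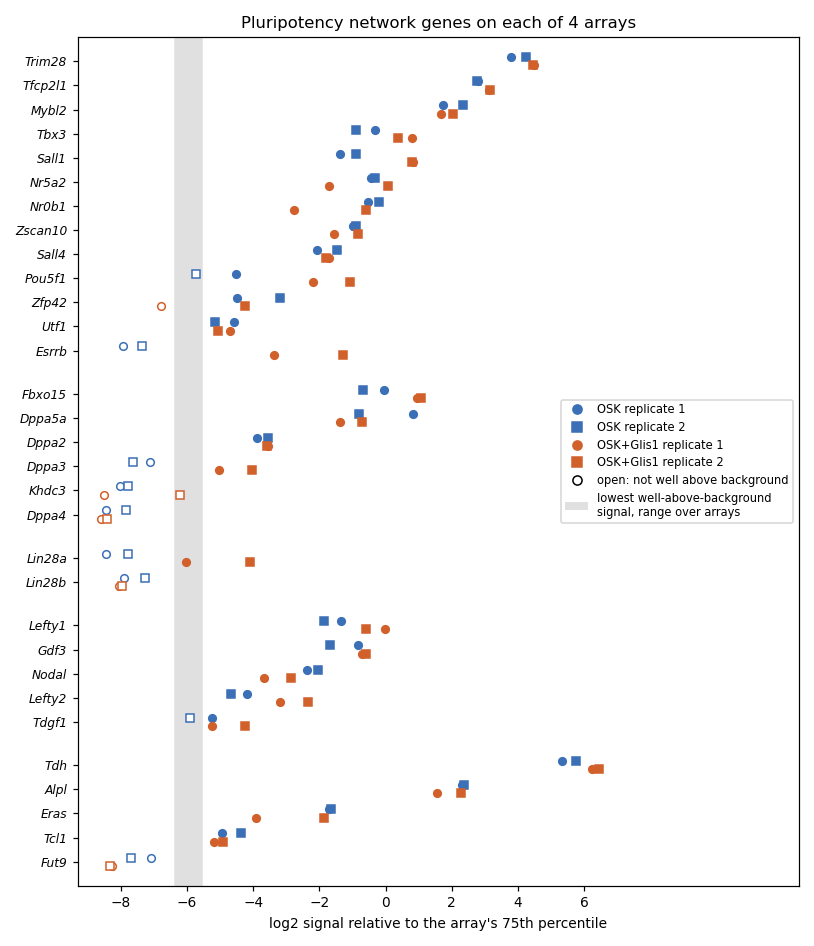
Scaled log2 signal (horizontal axis) of the 31 pluripotency network genes with a probe, 1 row per gene grouped by role, with a marker for each of the 4 arrays; open markers were not well above background. Esrrb, Dppa3 and Lin28a have open OSK markers and filled OSK+Glis1 markers, and Dppa4, Khdc3, Lin28b and Fut9 have open markers throughout.

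Between the groups, 7 of the 27 tested members rose in OSK+Glis1 and 0 fell, at an adjusted p of 0.05 in limma over 19171 genes. Of all genes tested, 6.05% rose and 8.17% fell. The members were chosen with earlier results of these data known, so these counts are a description. The 7 were the transcription factor genes Pou5f1, Esrrb and Sall1, the early embryo genes Dppa3 and Fbxo15, the let-7 antagonist Lin28a and the Nodal inhibitor Lefty2. The median difference was 0.38 over the tested members, the same with the 3 genes dark in OSK at their lower bounds, and 0.05 over all genes tested. Esrrb, Dppa3, Lin28a, Pou5f1 and Tdgf1 entered the test only through their signal in OSK+Glis1, and Zfp42 only through OSK, so their place among the tested genes already depends on the group where they are high. In a fit restricted to genes on in all 4 arrays, 5 of 21 members rose (Sall1, Fbxo15, Lefty1, Lefty2 and Tbx3) and 0 fell, against 5.39% and 7.63% of 17350 genes, and the members' median difference was 0.02 against 0.05.

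Without regard to the test, both OSK+Glis1 arrays lay above both OSK arrays for 14 of the 27 tested members and below them for 4, while all genes tested gave 33.4% and 26.6%. The fitted difference was above 0 for 16 of the 27 and for 55.1% of all genes. An unadjusted p under 0.05 was reached by 11 of the 27, 10 of them higher and 1 lower (Nodal), and by 29.2% of all genes.

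**Figure D2:**
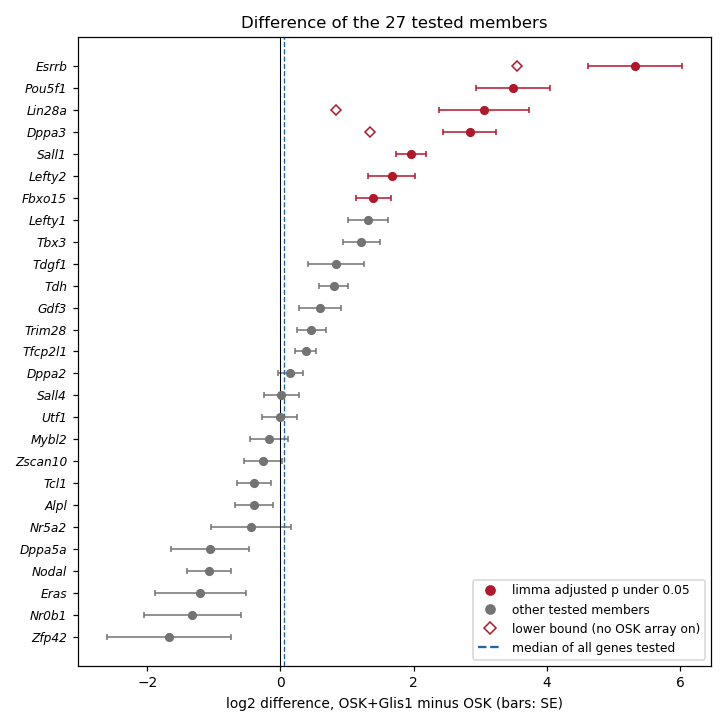
Difference between OSK+Glis1 and OSK in scaled log2 signal (horizontal axis, bars are standard errors of the limma fit) for the 27 tested members, with 7 red points past an adjusted p of 0.05 and diamonds for the lower bounds of the 3 genes with no OSK array above background. The red points run from 1.39 (Fbxo15) to 5.32 (Esrrb), and the lowest grey point is Zfp42 at -1.68.

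Among the transcription factors, Esrrb showed the widest gap. This orphan nuclear receptor, which can replace Nanog functions in stem cells, read -7.93 and -7.37 in OSK and -3.36 and -1.30 in OSK+Glis1. The groups did not overlap, and the OSK+Glis1 arrays lay far apart from each other. In the scaled signal Esrrb was at least 11.8-fold higher, taking the lowest flagged signal for the OSK arrays. The fitted log2 difference was 5.32 ± 0.71 SE (limma adjusted p = 0.012). From OSK+Glis1 replicate 1 alone the bound was 5.76-fold and from replicate 2 alone 23.97-fold, and these bounds from single arrays, here and for the other genes, were chosen after seeing the data. Under a normexp background correction with flagged local backgrounds replaced, the fitted difference was 1.76 (limma adjusted p = 0.021). Normexp, here and below, carried an offset of 50 added to the intensities, which narrows differences between dim spots. Esrrb had intensities of 3.89 and 4.05 in OSK, so the normexp difference and the bound are on unlike scales. The same holds for the other dim genes. The bound itself was not tested.

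Pou5f1, the gene of the delivered factor Oct4, read -4.52 and -5.72 in OSK and -2.19 and -1.08 in OSK+Glis1. All OSK+Glis1 values lay above all OSK values, and OSK replicate 2 was below the level taken as on. The log2 difference in the fit was 3.49 ± 0.55 SE (limma adjusted p = 0.0194), and with OSK replicate 2 at its lowest flagged signal the rise was at least 10.6-fold. From OSK+Glis1 replicate 1 alone it was at least 7.21-fold and from replicate 2 alone at least 15.5-fold, and dropping an OSK array gave fitted differences of 2.88 and 4.09. The fitted difference was 1.88 under a normexp background correction with flagged local backgrounds replaced. The sources used here do not say whether its probe reads the retroviral copy, the cells' own transcript or both. Of the other delivered factors, Klf4 (limma adjusted p = 0.812) and Sox2 (0.408) did not pass the test, and Sox2 read -5.82 and -5.44 in OSK, where neither array was above background, and -5.65 and -3.39 in OSK+Glis1, where both were.

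Sall1, a spalt-type zinc finger repressor, read -1.39 and -0.89 in OSK and 0.83 and 0.80 in OSK+Glis1. The OSK+Glis1 arrays almost coincided, and the rise was 3.87-fold (log2 1.95 ± 0.23 SE, limma adjusted p = 0.00865). Its relative Sall4, needed for stem cell self-renewal, did not follow in the tested probe, which read -2.07 and -1.46 in OSK and -1.70 and -1.80 in OSK+Glis1 (limma adjusted p = 0.977). A second, dimmer Sall4 probe read -2.86 and -2.50 in OSK and -2.82 and -0.91 in OSK+Glis1, so the probes of Sall4 disagreed on OSK+Glis1 replicate 2.

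Tbx3, a T-box factor of naive stem cells, read -0.33 and -0.91 in OSK and 0.79 and 0.39 in OSK+Glis1. The groups did not overlap, but the 2.31-fold difference missed the threshold (limma adjusted p = 0.054). It passed in 6 of the alternatives tried, with adjusted p from 0.0116 to 0.0449.

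Nr0b1, Nr5a2, Zfp42 and Zscan10 had negative fitted differences and did not pass. Nr0b1 (Dax1), a nuclear receptor that binds Oct4, read -0.52 and -0.20 in OSK but -2.78 and -0.59 in OSK+Glis1 (limma adjusted p = 0.316). Nr5a2, a nuclear receptor able to replace Oct4 in reprogramming, read -0.44 and -0.32 in OSK and -1.71 and 0.07 in OSK+Glis1 (limma adjusted p = 0.686). In both genes the OSK arrays were close together and OSK+Glis1 replicate 1 was far below the other 3 arrays. Zfp42 (Rex1), a marker of naive cells, read -4.48 and -3.20 in OSK and -6.79 and -4.25 in OSK+Glis1, with replicate 1 of OSK+Glis1 not above background (limma adjusted p = 0.318). Zscan10, a zinc finger factor of stem cells, read between -1.56 and -0.85 in all 4 arrays (limma adjusted p = 0.606).

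The remaining factor genes were on throughout and did not pass the test. Trim28, a corepressor that silences endogenous retroviruses, read 3.78 and 4.23 in OSK and 4.47 in both OSK+Glis1 arrays (limma adjusted p = 0.247). Tfcp2l1, a target of LIF and Stat3 signalling, read 2.79 and 2.75 in OSK and 3.14 and 3.16 in OSK+Glis1, a 1.30-fold difference with an adjusted p of 0.209 in limma. The other 2 Tfcp2l1 probes were far dimmer, between -3.82 and -2.70 on every array. Their log2 differences were 0.29 and -0.01, and the level read for Tfcp2l1 depends on the probe. Mybl2, a cell cycle factor, had an adjusted p of 0.737 and Utf1, a chromatin-bound marker of stem cells, 0.985 in limma.

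Among the early embryo proteins, Dppa3 and Fbxo15 rose. Dppa3 (Stella), which protects DNA methylation marks in the zygote, read -7.13 and -7.63 in OSK and -5.04 and -4.04 in OSK+Glis1. No OSK signal was above background, and Dppa3 was at least 2.53-fold higher with a fitted log2 difference of 2.84 ± 0.40 SE (limma adjusted p = 0.0137). The bound was 1.79-fold from OSK+Glis1 replicate 1 alone and 3.59-fold from replicate 2 alone, and the fitted difference was 0.53 under normexp with flagged local backgrounds replaced. Its chromosomal neighbours in the RefSeq order are Gdf3 and Nanog, and Gdf3 did not pass the test.

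Fbxo15, an F-box protein gene long used as a reporter of reprogramming, was on in OSK at -0.05 and -0.69 and read 0.96 and 1.08 in OSK+Glis1. The groups did not overlap and the rise was 2.62-fold (log2 1.39 ± 0.26 SE, limma adjusted p = 0.0326). Dppa5a, a KH-domain RNA-binding protein, varied most within OSK, at 0.82 and -0.80, against -1.37 and -0.73 in OSK+Glis1 (limma adjusted p = 0.314). Its second probe was dimmer, between -4.36 and -2.22, and gave a log2 difference of -0.92 beside -1.06 for the tested one. Dppa2 read between -3.88 and -3.56 in all 4 arrays (limma adjusted p = 0.671).

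The Lin28 proteins differed in detection. Lin28a read -8.43 and -7.79 in OSK, near the bottom of the scale, and -6.02 and -4.09 in OSK+Glis1. It was at least 1.77-fold higher, and the fitted log2 difference of 3.05 ± 0.68 SE passed narrowly (limma adjusted p = 0.0489). On OSK+Glis1 replicate 1 its signal lay just inside that array's flagged range and below the mean of the lowest flagged signals in OSK, so the bound rests on replicate 2 (3.46-fold alone). Under normexp with flagged local backgrounds replaced the fitted difference was 0.46 (limma adjusted p = 0.275). Of 7 tested genes of the let-7 and Lin28 axis, among them the let-7 targets Hmga2 and Igf2bp1, 0 rose and 0 fell in limma, with a median difference of 0.01, and at an unadjusted p of 0.05 the counts were 0 and 1.

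Of the Nodal pathway members, the inhibitor gene Lefty2 passed the test. It read -4.20 and -4.67 in OSK and -3.20 and -2.34 in OSK+Glis1, a rise of 3.18-fold (log2 1.67 ± 0.35 SE, limma adjusted p = 0.0437). Lefty1 read -1.33 and -1.87 in OSK and -0.01 and -0.58 in OSK+Glis1, and its 2.48-fold difference missed the threshold (limma adjusted p = 0.0534). It passed in 7 of the alternatives, with adjusted p from 0.0194 to 0.0463. For both inhibitors all OSK+Glis1 values lay above all OSK values. Lefty1 and Lefty2 lie close together on chromosome 1 and are similar in sequence, and how far their probes tell them apart was not tested.

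Nodal itself read -2.36 and -2.03 in OSK and -3.69 and -2.84 in OSK+Glis1. Both OSK+Glis1 arrays lay below both OSK arrays, but the difference of -1.07 ± 0.33 SE (log2) did not pass (limma adjusted p = 0.111). The related ligand gene Gdf3 read -0.84 and -1.67 in OSK and -0.72 and -0.60 in OSK+Glis1 (limma adjusted p = 0.292). Tdgf1 (Cripto), the co-receptor that Nodal needs, read -5.26 and -5.92 in OSK and -5.25 and -4.25 in OSK+Glis1 (limma adjusted p = 0.272), with OSK replicate 2 not above background. Of 10 tested Nodal receptors, processing enzymes and effectors, 0 rose and 2 fell (1 and 3 at an unadjusted p of 0.05 in limma), the proprotein convertase genes Pcsk6 (2.66-fold, limma adjusted p = 0.0245) and Pcsk5 (2.06-fold, 0.0338). Both convertase calls were lost when any 1 of the 4 arrays was left out, with adjusted p of 0.0533 to 0.1 for Pcsk6 and 0.071 to 0.144 for Pcsk5.

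None of the metabolic, signalling and surface genes passed. Tdh, the threonine dehydrogenase on which mouse stem cells depend, read 5.34 and 5.74 in OSK and 6.24 and 6.45 in OSK+Glis1. The groups did not overlap, and the 1.74-fold difference had an adjusted p of 0.0803 in limma. Tdh passed under normexp with flagged local backgrounds replaced (limma adjusted p = 0.0213) and with an intensity trend (0.0279). Alpl, tissue-nonspecific alkaline phosphatase and an early stain of reprogramming colonies, read 2.30 and 2.36 in OSK and 1.57 and 2.29 in OSK+Glis1 (limma adjusted p = 0.432). Eras, a Ras protein of stem cells, read -1.72 and -1.65 in OSK and -3.92 and -1.86 in OSK+Glis1 (limma adjusted p = 0.328), again with OSK+Glis1 replicate 1 far below the rest. Tcl1, a coactivator of Akt kinase, read between -5.17 and -4.37 in all 4 arrays (limma adjusted p = 0.386).

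The OSK+Glis1 arrays differed from each other in many of these genes. Of the 27 tested members, 9 were at least 1 log2 unit higher on replicate 2 than on replicate 1 and 0 were lower by as much, where 1.94% and 2.88% of all genes tested were. The 9 were Zfp42 (2.54 higher), Nr0b1 (2.19), Eras (2.06), Esrrb (2.06), Lin28a (1.93), Nr5a2 (1.78), Pou5f1 (1.11), Dppa3 (1.01) and Tdgf1 (1.00), and the next was Lefty2 at 0.86. They include 4 of the 7 genes that rose and 5 that did not pass. This count was chosen after the values were seen and carries no test.

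Dim genes vary more between arrays. By quintiles of mean signal over all genes tested, 5 of the 7 members in the dimmest quintile were among the 9, against 5.27% of all genes there. In the next quintile 2 of 6 were (Pou5f1 and Eras, against 2.4%), and in the middle quintile 2 of 8 (Nr0b1 and Nr5a2, against 1.43%). None of the 6 members in the upper quintiles was. Between the OSK arrays 1 member was at least 1 higher on replicate 2 (Zfp42) and 2 were lower (Dppa5a and Pou5f1), where 1.34% and 3.63% of all genes were. The median replicate difference of all genes was 0.02 in OSK+Glis1, and 0.64 over the members. Sox2 was 2.26 higher on OSK+Glis1 replicate 2, as 1 of 32 tested genes of the other naive pluripotency list. Of 7 tested primed epiblast genes, Zic2 was higher there (1.36) and Gsc lower (-1.15). The germ cell, let-7 and Nodal lists had no tested gene that differed by as much. The summed fibroblast markers were lower on OSK+Glis1 replicate 2, as given above, and their part in the members' replicate difference was not tested. All labels give day 5, but the scanner tables of replicates 1 and 2 were named with different numbers in both groups, and no source used here says what those numbers mark.

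**Figure D3:**
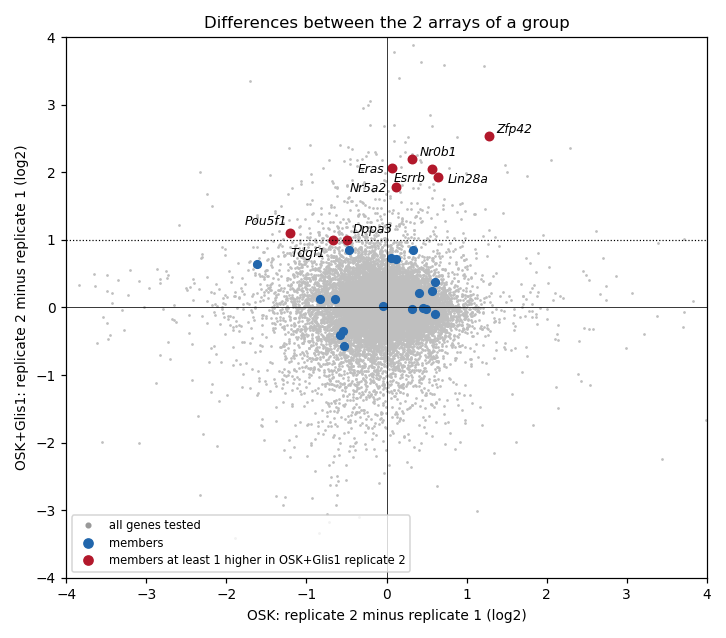
Difference between replicate 2 and replicate 1 in log2 units, for OSK (horizontal axis) and OSK+Glis1 (vertical axis), over 19171 genes (grey) and 27 members (coloured); 23 genes lie outside the plotted range. The 9 red members lie on or above the dotted line at 1, from Tdgf1 (1.00) to Zfp42 (2.54), and no member lies below -1 on the vertical axis.

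How far the 7 rises rest on single arrays was examined by leaving each out. Sall1 passed in all 4 such fits, with adjusted p of 0.0296 to 0.0409 in limma. Pou5f1 lost its call when OSK replicate 1 was dropped (0.0527) and when OSK replicate 2 was (0.0917), and so did Esrrb (0.0888 and 0.0799), Dppa3 (0.0688 and 0.0952), Lin28a (0.192 and 0.155) and Lefty2 (0.113 and 0.184). Lefty2 lost it without OSK+Glis1 replicate 2 as well (0.102). Fbxo15 kept it only without OSK replicate 1 (0.0413) and had 0.0796, 0.105 and 0.121 without OSK replicate 2 and OSK+Glis1 replicates 1 and 2. The fitted differences stayed positive in all these fits, and a fit on 3 arrays has 1 residual degree of freedom and assumes that the lone array of a group varies like the other group. In such fits 2 members were higher without OSK replicate 1 and 1 without OSK replicate 2. Testing all probes with no filter on dim ones ended the calls of Pou5f1 (0.0529), Fbxo15 (0.0957), Lin28a (0.114) and Lefty2 (0.113), and a normexp background correction with flagged local backgrounds replaced ended those of Dppa3 (0.0982) and Lin28a (0.275). The same correction without that replacement left no gene past the threshold. Both carried the offset of 50, and its part in these losses was not tested. Without OSK+Glis1 replicate 2, Nr0b1 (log2 difference -2.42, limma adjusted p = 0.0167) and Eras (-2.23, 0.0155) fell, and without OSK+Glis1 replicate 1 Sox2 rose (2.25, 0.0244).

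**Figure D4:**
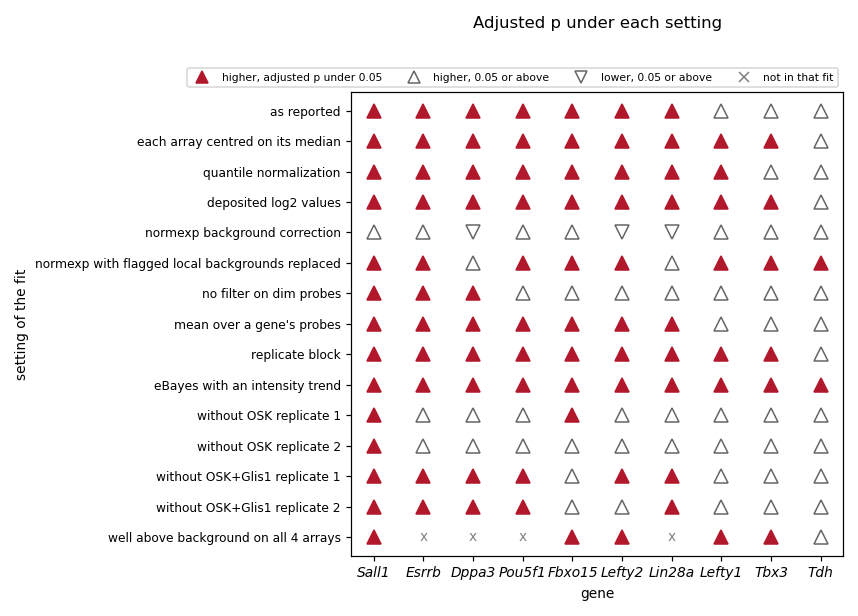
Calls of 10 members (columns) under 15 settings of the fit (rows), with filled red triangles for an adjusted p under 0.05 and the direction of the triangle for the sign of the difference. Sall1 is filled in every row but the normexp background correction, and Esrrb, Dppa3, Pou5f1 and Lin28a are open in both rows that leave out an OSK array.

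Related genes that were not members were examined in 5 further lists. Of their 63 tested genes, 9.52% rose and 12.7% fell, where 6.05% and 8.17% of all genes did. That is, 6 rose and 8 fell (3 fell when either OSK array was dropped and 5 when either OSK+Glis1 array was), and the median difference was -0.03. Of the 63, 6 entered the test only through OSK+Glis1 (Foxa2 and Nanos3 among them) and 2 only through OSK (Zic2 and Piwil2), so their place among the tested genes already depends on the brighter group. Among 32 tested genes of the list called other naive pluripotency genes 2 rose and 3 fell. Being on that list does not make a gene, Dnmt3b included, specific to naive cells. The glucose transporter gene Slc2a3 rose 5.42-fold (log2 2.44 ± 0.21 SE, limma adjusted p = 0.00467), reading 2.30 and 2.73 in OSK and 4.93 and 4.97 in OSK+Glis1, and the DNA methyltransferase gene Dnmt3b rose 7.33-fold (limma adjusted p = 0.00422). The actin nucleator gene Cobl fell 9.84-fold (log2 -3.30 ± 0.21 SE, limma adjusted p = 0.00262), the junction gene Jam2 6.58-fold (0.0107) and the LIF receptor gene Lifr 2.34-fold (0.0437). Jam2 lost its call without OSK replicate 1 (0.0757) or OSK replicate 2 (0.0638), and Lifr without any 1 array (0.063 to 0.153).

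Of 14 germ cell genes with a probe, 7 were tested and 2 rose, both of them factors of primordial germ cells, while 0 fell and the median difference was -0.09. At an unadjusted p of 0.05 in limma the counts were 2 higher and 3 lower. The 3 were the piRNA pathway gene Piwil2, which was on in both OSK arrays and in no OSK+Glis1 array (adjusted p = 0.0659), Morc1 (log2 difference -1.03, 0.136) and the primordial germ cell factor gene Prdm1 (-0.63, 0.17). Nanos3, an RNA-binding protein gene, read -7.08 and -5.01 in OSK and -0.42 and -0.31 in OSK+Glis1 (log2 5.68 ± 0.69 SE, limma adjusted p = 0.00953). OSK replicate 1 was not above background, and with it at the lowest flagged signal the difference was at least 37.8-fold. Tfap2c, which trophoblast also expresses, read -3.01 and -2.94 in OSK and 1.37 and 2.22 in OSK+Glis1 (27.2-fold, limma adjusted p = 0.00273). Of 8 trophoblast markers with a probe Tfap2c was the only one that rose, and Elf5, Hand1 and Plac1 were on in no array. The germ cell genes Dazl, Mael, Sycp1, Asz1 and Taf7l were on in no array either.

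Of 15 primed epiblast genes with a probe 7 were tested, and 2 rose and 3 fell. The forkhead gene Foxa2, above background in no OSK array, rose at least 61.4-fold (limma adjusted p = 0.00189) and the Wnt modulator gene Sfrp2 2.20-fold (0.0191). The Wnt effector gene Lef1 fell 12.9-fold (limma adjusted p = 0.00262). Zic2, a zinc finger factor, read -3.24 and -3.32 in OSK and -7.16 and -5.80 in OSK+Glis1 (log2 -3.19 ± 0.47 SE, limma adjusted p = 0.0157) and was on in 1 OSK+Glis1 array, and Lhx1, a LIM homeobox factor, fell 2.95-fold (limma adjusted p = 0.0133). Otx2, Mixl1, Dkk1 and T (Brachyury) were on in no array. Fgf5 was on in 1 OSK+Glis1 array only (replicate 2, -2.65, against -8.31 on replicate 1). Cer1 and Eomes were each on in 1 OSK array only, and Foxd3 in 1 array of each group. Being on this list does not make a gene, Foxa2 included, specific to the primed epiblast. The Sfrp2 call was lost without any 1 array (0.066 to 0.0953), Zic2 without OSK replicate 1 (0.0984) or 2 (0.103), and Lhx1 without OSK replicate 2 (0.0611) or OSK+Glis1 replicate 2 (0.0597).

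**Figure D5:**
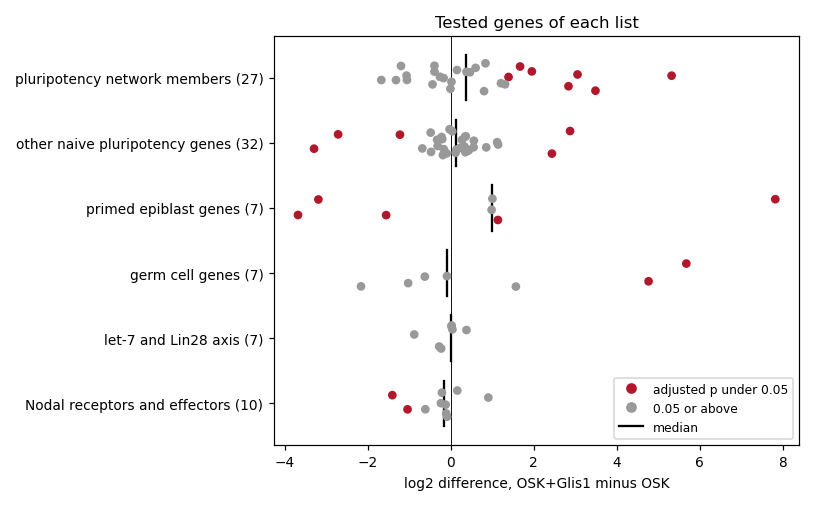
Difference between OSK+Glis1 and OSK in scaled log2 signal (horizontal axis) for the tested genes of the pluripotency network and of 5 related lists (rows, number tested in brackets), 1 point per gene, red where the limma adjusted p was under 0.05, with the list's median as a bar. Red points of the network lie only to the right of 0, while the other naive and the primed lists have red points on both sides.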

How the data were processed

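Each sample, total RNA of p53-null MEFs at day 5, went onto 1 Agilent array with Cy3 as its only dye, per the labels' protocols. The deposited scanner tables hold spot intensity, and per the file headers the software was Feature Extraction 10.7.3.1 from Agilent. The processed signal is background-subtracted and detrended but not scaled between arrays. The authors also deposited log2 values centred on each array's median (found by comparison with the scanner values, 99.8% to 99.9% of probes within 0.01), with column medians of 3.1e-06, -0.00016, 0.000216 and 4.82e-05. No source used here names the tool that made them.

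Processed signals were scaled to each array's 75th percentile, outlier-flagged spots were left out, spots of a probe were averaged, and 71 probes without a usable spot on every array were dropped. Probes on in both arrays of at least 1 group were tested. A gene was its brightest probe. Symbols came from RefSeq (GRCm38.p6). The array annotation names mm9, so coordinates are given for promoters only. Groups were compared with limma 3.58.1 in R 4.3.3 (two-sided, 2 residual and 2.82 prior degrees of freedom, Benjamini-Hochberg over all genes). A gene above background in no OSK array has a lower bound, the OSK+Glis1 mean over the mean, per OSK array, of the higher of its own signal and the lowest flagged signal. The steps were tested on simulated data. All 4 arrays lay on 1 slide, so slide cannot be a block. All members, the transduced factors and, per further list, up to 4 of the largest passing changes were named. Lifr, Sfrp2, Hmga2, Igf2bp1, Piwil2, Morc1, Prdm1, Fgf5, Cer1, Eomes, Foxd3 and Gsc were named beyond that rule, with their values seen. So were the endothelium and keratinocyte markers and list genes on in no array. Members, lists and motifs were chosen with earlier results of these data known.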

Additional observations from a re-analysis of the deposited data

How the results depend on the processing

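Alternatives were each array centred on its median, quantile normalization, the deposited log2 values, normexp background correction with and without replacing flagged local backgrounds, no filter on dim probes, a filter for all 4 arrays, the mean of a gene's probes, an intensity trend, a replicate block, leaving out each array, and other detection calls. Members that rose numbered 5 to 10 in the fits on all arrays other than those named next. With normexp as planned 0 genes passed in any list or over all genes in limma, and at an unadjusted p of 0.05 435 genes were higher and 976 lower (members 3 and 1). On OSK replicate 2, 6 spots had local backgrounds over 1000, and the fitted background mean was -662.8 there against -5.76 to -20.4 elsewhere. With flagged backgrounds replaced 8 members rose, and 1 fell (Nodal). Both normexp fits carried an offset of 50 added to the intensities. Without a filter 554 genes rose and 950 fell, with 3 members higher and 5 further-list genes lower. Leaving out 1 array gave 449 to 786 genes higher and 664 to 1093 lower, 1 to 6 members higher and 0 to 2 lower, and 3 to 5 further-list genes lower. The share of calls that were higher was 42.6% with the 75th percentile, 53% after centring arrays on their medians (median of all genes 0.19) and 54.4% for the authors' log2 values (median 0.21). Members counted as on numbered 22 to 24 in OSK and 26 to 27 in OSK+Glis1 over all detection calls. These calls include being on in at least 1 array of a group and leaving out 1 array.

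The replicate numbers are shared by the groups, and the correlation of replicate differences between groups was 0.00938 over genes. Such a value cannot tell whether samples of the same number share a culture or a batch, and no source used here says so. With the replicate block 9 members rose and 1 fell (Zfp42), and 1111 genes rose and 1543 fell.

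Some differences changed sign. Under normexp as planned these were Dppa3 (-0.88), Lin28a (-0.94), Lefty2 (-0.30), Tdgf1 (-1.08), Dppa2 (-0.99), Sall4 (-0.43), Sox2 (-0.97) and Mybl2 (0.16), and with flagged backgrounds replaced Sall4 (-0.030) and Dppa2 (-0.028). Utf1 was 0.13 with median centring, 0.16 with quantile normalization and 0.14 on the authors' log2 scale. Dropping single arrays gave ranges that cross 0 for Nr5a2 (-1.33 to 0.45), Sall4 (-0.29 to 0.32), Zscan10 (-0.62 to 0.095), Utf1 (-0.28 to 0.26), Mybl2 (-0.48 to 0.13), Dppa2 (-0.013 to 0.31), Sox2 (-0.016 to 2.25), Klf4 (-0.25 to 0.52) and Glis1 (-0.43 to 0.020). None of these had passed the test except Dppa3, Lin28a and Lefty2, and the cause was not tested beyond the backgrounds given.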
